A study of Mus musculus with 9 samples.

Results

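The genes described here are 9 early genes of 3 families: Egr1, Egr2 and Egr3, Nr4a1, Nr4a2 and Nr4a3, and Ier2, Ier3 and Ier5. They were taken by symbol from a table of 13593 genes, and all 9 were in it and passed the filter on low counts. The table holds read counts from 9 RNA-seq libraries of bone marrow-derived macrophages, made by growing marrow in medium from L929 fibroblasts, a source of macrophage growth factor. Marrow came from wild-type C57BL/6 mice aged 6 weeks and was cultured for 7 days with 15% L929 supernatant, so every group shares this culture. Cells then received CCL26, CX3CL1 or, as the protein control, BSA, each at 4 nM for 4 h, with 3 libraries per group. Both chemokines are called ligands of CX3CR1 in the study's title, and the question is how macrophages differ between them. Whether replicates were separate animals or cultures is not labelled, so the p-values cover only the spread among these 9 libraries, possibly a technical one.

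EGR proteins are zinc-finger transcription factors that cells make within minutes of a growth factor, cytokine or adhesion signal, mostly through the ERK kinases and the factor SRF. NR4A proteins are nuclear receptors with no classical ligand, so their activity follows largely from how much is made, and in macrophages Nr4a1 is best known for restraining inflammatory gene expression and for the patrolling monocyte lineage. IER genes carry the name immediate early response because serum and stress induce them quickly, and the Ier2 and Ier5 proteins are related to each other while the Ier3 protein is not. Messages of these families are generally short-lived, and 1 time point was measured.

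Depth ran from 16923982 to 23198324 counts per library. CX3CL1 replicate 1 stood apart: 1193 genes had no count in it, against 80 to 170 in the other 8 libraries, and its TMM scaling factor was 0.849 against 0.999 to 1.05. The macrophage identity of the cultures was checked with 10 markers, all present. Their summed level was 24400 to 24900 CPM in CCL26, 28200 to 42900 CPM in CX3CL1 and 30000 to 30600 CPM in BSA libraries. The highest value was that of CX3CL1 replicate 1. Most of the sum was Lyz2, with means of 18300 CPM in CCL26, 26800 CPM in CX3CL1 and 23500 CPM in BSA. Single markers moved both ways with that library. Leaving it out lowered the CX3CL1 mean of Lyz2 to 21900 CPM and raised that of Adgre1 from 2450 to 2850 CPM. The other summed marker lists of that library were also high for monocytes and granulocytes (12 of 14 genes present, 189 CPM, against 70.9 to 89 CPM in CCL26 and BSA libraries) and for megakaryocytes and erythroid cells (3 of 10 genes present, no globin among them, 262 CPM, against 66.6 to 84.3 CPM). The sums were high there too for T, NK and B cells (3 of 12 genes present, 70.9 CPM, against 18.6 to 27 CPM) and for dendritic cells (4 of 7 genes present, 10.2 CPM, against 3.94 to 4.79 CPM). They were not high for mast cells, basophils and eosinophils (2.65 CPM, against 3.45 to 6.72 CPM) or stromal cells (0.993 CPM, against 0.821 to 2.39 CPM). Pf4 (CX3CL1 mean 144 CPM) was most of the megakaryocyte and erythroid sum. Cd79b (CX3CL1 mean 37.6 CPM) was most of the T, NK and B cell sum. Members' fold changes are therefore given with all 9 libraries and without CX3CL1 replicate 1. A level is in CPM, the reads of a gene scaled by the library total after TMM correction, and in bulk RNA fewer expressing cells and less RNA per cell cannot be told apart.

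With all 9 libraries, no early gene passed edgeR's quasi-likelihood test at an adjusted p of 0.05 in any of the 3 comparisons. Without CX3CL1 replicate 1, Egr3 rose and Nr4a2, Ier2, Ier3 and Ier5 fell with CCL26 against BSA. With CX3CL1 against BSA none passed in either fit. Between the ligands, Egr3 and Egr1 were higher and Ier3 was lower in CCL26 than in CX3CL1 without CX3CL1 replicate 1. Within each of the EGR and NR4A families some members passed and others did not, and differences between members were not tested.

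**Figure D1:**
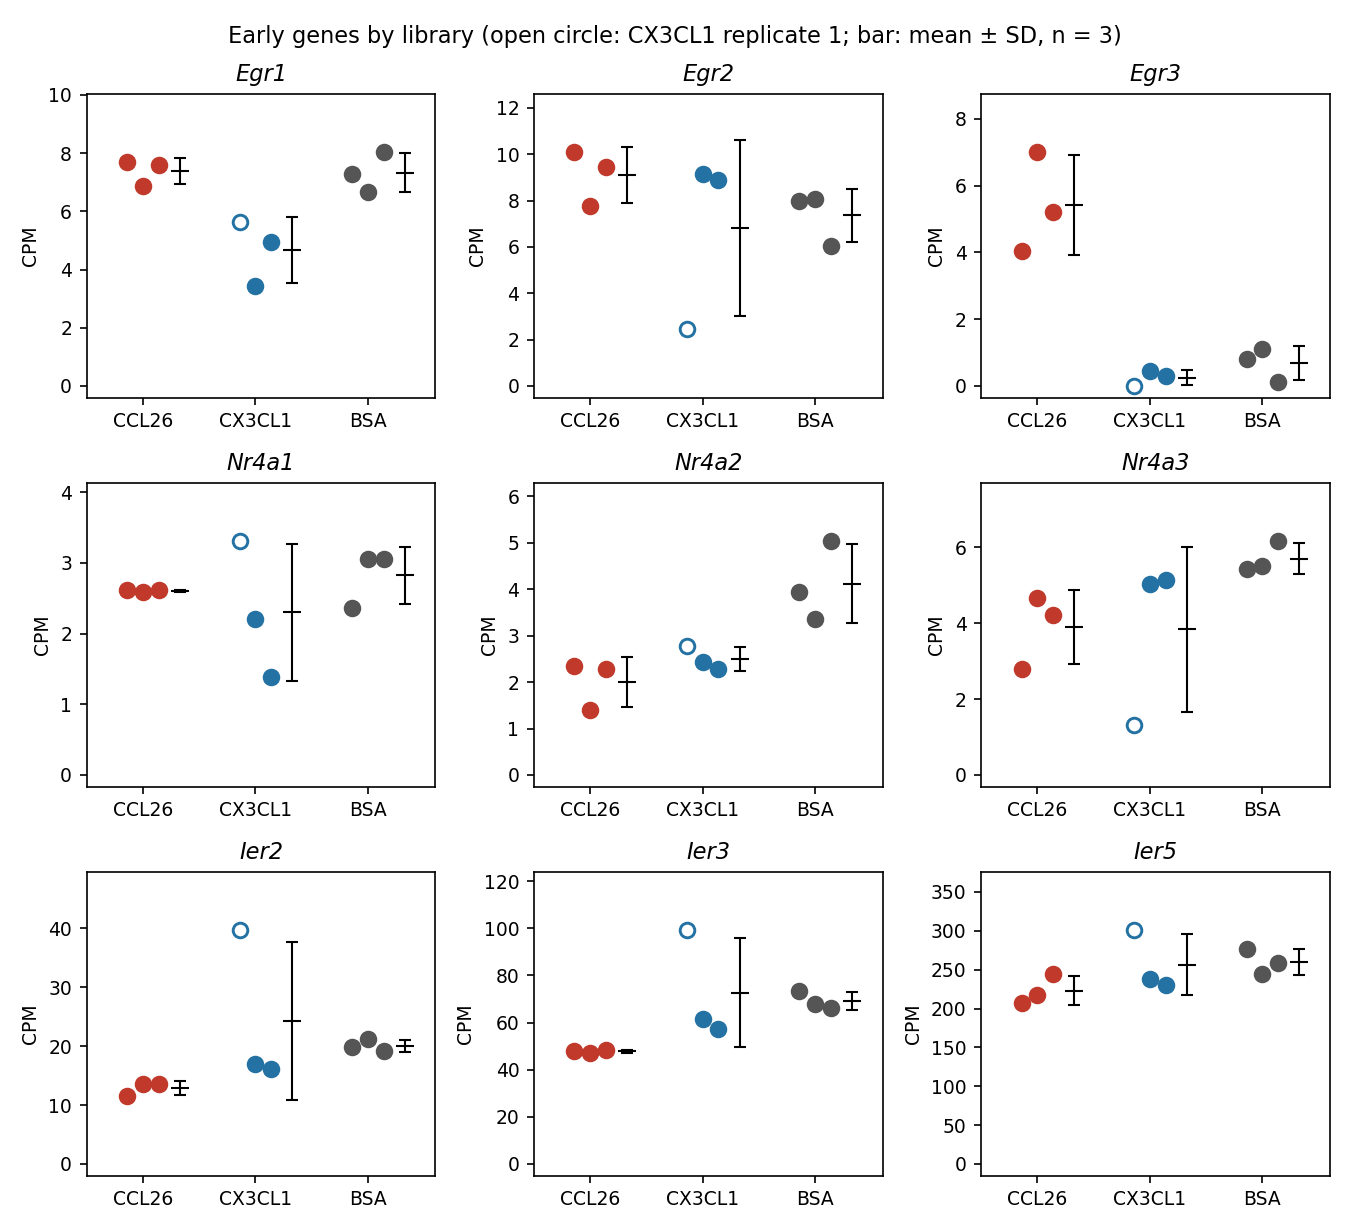
Level of each early gene (CPM, linear axis) in each library of the CCL26, CX3CL1 and BSA groups, with the mean and SD of 3 libraries beside the points and CX3CL1 replicate 1 as an open circle. Egr3 in CCL26 libraries lies between 4.04 and 7.01 CPM, above every other library, while CX3CL1 replicate 1 lies far from its replicates for Egr2, Nr4a3, Ier2 and Ier3.

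Egr3 (chromosome 14, 70077203 to 70082614, plus strand, GRCm38) encodes an EGR factor known from T cell tolerance and muscle spindle development. It had 91, 146 and 96 counts in CCL26 libraries, 0, 8 and 7 in CX3CL1 libraries and 16, 22 and 2 in BSA libraries. In scaled units this was 4.04, 7.01 and 5.21 CPM with CCL26, 0, 0.463 and 0.296 CPM with CX3CL1 and 0.821, 1.12 and 0.113 CPM with BSA. All 3 CCL26 libraries lay above all 6 others, and the CX3CL1 and BSA values overlapped. The 0 of CX3CL1 replicate 1 allows up to 0.199 CPM, the level of 3 counts in that library, which covers counting error only.

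For Egr3 with CCL26 against BSA, the log2 fold change was 2.96 (SE 0.777, edgeR adjusted p = 0.31) over 9 libraries and 2.95 (SE 0.426, edgeR adjusted p = 1.37e-05) without CX3CL1 replicate 1, a 7.73-fold higher level. The size was thus the same and the standard error differed. By size, Egr3 ranked 6 of 12915 genes from the highest with all libraries. Against CX3CL1 the log2 fold change was 4.34 (SE 0.864, edgeR adjusted p = 0.108) with all libraries and 3.85 (SE 0.546, edgeR adjusted p = 1.87e-05) without CX3CL1 replicate 1. BSA replicate 3 had 2 counts, so the BSA level behind these folds rests on few reads. When a second library was also left out, the call held in 8 of 8 fits for both comparisons, with a log2 fold change of 2.47 to 3.49 against BSA. With CX3CL1 against BSA the change was -1.38 (95% interval -3.39 to 0.63) with all libraries and -0.90 (-2.18 to 0.38) without CX3CL1 replicate 1, both intervals spanning 0.

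Egr1 (chromosome 18, 34859823 to 34864984, plus strand) encodes the EGR factor most often used as a marker of recent ERK signalling. Its level was 7.68, 6.86 and 7.6 CPM with CCL26, 5.63, 3.42 and 4.94 CPM with CX3CL1 and 7.28, 6.68 and 8.04 CPM with BSA. All 3 CX3CL1 libraries lay below all 6 others, and CCL26 and BSA values overlapped. CX3CL1 replicate 1 was the highest of its group here. With CX3CL1 against BSA the log2 fold change was -0.65 (SE 0.216, edgeR adjusted p = 0.711), and without CX3CL1 replicate 1 it was -0.79 (SE 0.214, edgeR adjusted p = 0.152). Neither passed. CCL26 against CX3CL1 gave 0.66 (edgeR adjusted p = 0.423) with all libraries and 0.81 (SE 0.213, edgeR adjusted p = 0.0139) without CX3CL1 replicate 1, a 1.75-fold higher level that passed. That call held in 7 of 8 fits with a second library left out, and the largest adjusted p was 0.248. CCL26 against BSA gave 0.01 in both fits, with a 95% interval of -0.47 to 0.49 with all libraries and -0.36 to 0.39 without CX3CL1 replicate 1.

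Egr2 (chromosome 10, 67535475 to 67542188, plus strand) encodes a factor needed for Schwann cell myelination, and in mouse macrophages it is a known marker of alternative activation. It was at 10.1, 7.77 and 9.45 CPM with CCL26, 2.45, 9.15 and 8.87 CPM with CX3CL1 and 8, 8.06 and 6.06 CPM with BSA. CX3CL1 replicate 1 was the lowest of all 9 libraries, with 37 counts against 107 to 228 elsewhere. Without it, CCL26 averaged 9.11 ± 1.21 CPM (SD, n = 3) and CX3CL1 9.01 ± 0.193 CPM (SD, n = 2), against 7.37 ± 1.14 CPM in BSA (SD, n = 3). The log2 fold changes against BSA in that fit were 0.31 (95% interval -0.04 to 0.65, edgeR adjusted p = 0.232) for CCL26 and 0.29 (-0.10 to 0.67, edgeR adjusted p = 0.79) for CX3CL1, and neither passed. With CX3CL1 replicate 1 kept, the CCL26 value was 0.30 (-0.63 to 1.24) and the CX3CL1 value -0.10 (-1.04 to 0.83), so the direction of the second turned on that library. CCL26 against CX3CL1 gave 0.41 (-0.52 to 1.34) with all libraries and 0.02 (-0.36 to 0.40) without CX3CL1 replicate 1, neither past the test.

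The RefSeq promoter table (GRCm38.p6, 250 bases before a start to 50 from it on) has 5 windows for Egr2. The window below is shown because it holds both a CArG box, the element that SRF binds, and a pair of short cAMP response elements (CRE, TGACG or CGTCA), which CREB factors can bind; capitals mark these matches. It covers chr10:67537619-67537918, plus strand.
Egr2: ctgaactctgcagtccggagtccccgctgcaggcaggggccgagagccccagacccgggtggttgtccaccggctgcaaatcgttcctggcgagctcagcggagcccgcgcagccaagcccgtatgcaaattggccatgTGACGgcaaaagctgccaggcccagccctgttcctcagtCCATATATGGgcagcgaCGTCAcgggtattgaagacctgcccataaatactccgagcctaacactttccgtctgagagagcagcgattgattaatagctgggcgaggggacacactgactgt
The CArG box begins at -72 from the start and the short CREs at -111 and -55. A CArG box was in 1.63% of all 32851 windows, and in 4 of the 5 Egr2 windows, of which windows 3 to 5 share most of their bases. Matches describe letters only, and no binding was measured.

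In BSA the NR4A family had the least messenger RNA per length apart from Egr3, and its counts were small over all 9 libraries, from 20 to 122 per library. Nr4a2 (chromosome 2, 57106830 to 57124003, minus strand) encodes Nurr1, known from dopamine neurons and as a repressor of inflammatory genes in microglia. It was at 2.35, 1.39 and 2.28 CPM with CCL26, 2.78, 2.43 and 2.28 CPM with CX3CL1 and 3.95, 3.37 and 5.04 CPM with BSA. All 6 chemokine libraries lay below all 3 BSA libraries, and the 2 chemokine groups overlapped. CCL26 against BSA gave a log2 fold change of -1.03 in both fits (SE 0.295, edgeR adjusted p = 0.399 with all libraries; SE 0.288, edgeR adjusted p = 0.0126 without CX3CL1 replicate 1), 0.49 of the BSA level. The call held in 6 of 8 fits with a second library left out, with adjusted p up to 0.0875. For CX3CL1 against BSA the values were -0.72 (SE 0.294, edgeR adjusted p = 0.711) and -0.80 (SE 0.323, edgeR adjusted p = 0.558), which did not pass. CCL26 against CX3CL1 gave -0.31 (95% interval -0.99 to 0.36) with all libraries and -0.23 (-0.91 to 0.46) without CX3CL1 replicate 1, neither past the test.

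Nr4a3 (chromosome 4, 48045153 to 48086447, plus strand) encodes NOR1, which acts partly redundantly with Nr4a1 in mouse myeloid cells. It was at 2.8, 4.66 and 4.23 CPM with CCL26, 1.32, 5.04 and 5.15 CPM with CX3CL1 and 5.44, 5.51 and 6.17 CPM with BSA. All BSA libraries were above all others, and CX3CL1 replicate 1 was the lowest of the 9. CCL26 against BSA gave a log2 fold change of -0.55 (SE 0.218, edgeR adjusted p = 0.0816) without CX3CL1 replicate 1, which did not pass, and the same size with all libraries (SE 0.439, edgeR adjusted p = 1). For CX3CL1 against BSA the change was -0.56 with all libraries and -0.16 without CX3CL1 replicate 1, and neither passed. Between CCL26 and CX3CL1 the value was 0.01 (SE 0.443) with all libraries and -0.39 (95% interval -0.89 to 0.11) without that library, also not past the test.

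Nr4a1 (chromosome 15, 101254269 to 101274795, plus strand) encodes Nur77. It was at 2.62, 2.59 and 2.61 CPM with CCL26, 3.31, 2.2 and 1.39 CPM with CX3CL1 and 2.36, 3.06 and 3.06 CPM with BSA. CCL26 libraries lay within the BSA range, while the CX3CL1 libraries spread from the lowest to the highest of the 9. No comparison passed. For CCL26 against BSA the log2 fold change was -0.12 (95% interval -0.87 to 0.64) with all libraries and -0.11 (-0.72 to 0.50, edgeR adjusted p = 0.849) without CX3CL1 replicate 1. For CX3CL1 against BSA it was -0.31 (-1.07 to 0.46, edgeR adjusted p = 0.721) with all libraries and -0.67 (-1.38 to 0.05, edgeR adjusted p = 0.707) without that library. Between CCL26 and CX3CL1 it was 0.19 (-0.57 to 0.95) with all libraries and 0.55 (-0.16 to 1.27) without it.

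The promoters of the 3 NR4A genes are shown because each held 4 short CREs, TGACG or CGTCA on the strand printed, in capitals. They are read 5′ to 3′ and cover chr15:101266596-101266895 (plus strand) for Nr4a1, chr2:57123954-57124253 (minus strand) for Nr4a2 and chr4:48045055-48045354 (plus strand) for Nr4a3. In Nr4a1 capitals also mark the EGR core GCGGGGGCG, read on the other strand, and a match to the NF-kB site near the start.
Nr4a1: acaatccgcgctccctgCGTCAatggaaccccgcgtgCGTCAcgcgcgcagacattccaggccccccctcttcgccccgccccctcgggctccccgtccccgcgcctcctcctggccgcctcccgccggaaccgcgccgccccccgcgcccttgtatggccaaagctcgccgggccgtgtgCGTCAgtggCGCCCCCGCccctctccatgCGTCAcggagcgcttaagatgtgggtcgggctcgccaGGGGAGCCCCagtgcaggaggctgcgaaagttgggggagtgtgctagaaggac
Nr4a2: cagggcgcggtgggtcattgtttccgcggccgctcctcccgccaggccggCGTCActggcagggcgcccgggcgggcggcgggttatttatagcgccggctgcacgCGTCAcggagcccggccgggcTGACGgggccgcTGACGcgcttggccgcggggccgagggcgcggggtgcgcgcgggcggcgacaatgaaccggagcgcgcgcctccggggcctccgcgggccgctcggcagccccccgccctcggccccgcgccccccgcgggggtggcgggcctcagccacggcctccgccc
Nr4a3: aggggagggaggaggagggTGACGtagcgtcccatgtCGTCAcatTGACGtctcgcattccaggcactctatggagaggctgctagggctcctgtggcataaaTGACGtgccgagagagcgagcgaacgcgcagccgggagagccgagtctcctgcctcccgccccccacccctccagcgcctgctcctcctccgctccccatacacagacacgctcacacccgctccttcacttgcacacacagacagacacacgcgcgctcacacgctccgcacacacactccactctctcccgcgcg
At least 1 short CRE was in 20.8% of the 32851 windows, and at least 4 were in 76 of them, or 0.231%. The share of G and C was 72.3% in Nr4a1, 81.7% in Nr4a2 and 64.7% in Nr4a3, against a median of 52.7% over all windows. The motif shares are not matched for it. Counted from the start, the short CREs begin at -233, -213, -69 and -40 in Nr4a1, at -200, -144, -123 and -111 in Nr4a2, and at -231, -213, -205 and -147 in Nr4a3. The EGR core, in 2.91% of windows, begins at -60 in Nr4a1. Neither the full CRE TGACGTCA (1.79% of windows), the EGR site GCGTGGGCG (0.612%) nor the NR4A monomer site AAAGGTCA (1.51%) was among these letters, or in any other window of the 6 members found in the table. Of these 3 genes, Nr4a2 passed edgeR's test with CCL26 against BSA without CX3CL1 replicate 1, but not with all libraries. The differences between the 3 genes were not tested.

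Among the IER genes, Ier3 (chromosome 17, 35821684 to 35822923, plus strand) encodes IEX-1, an NF-kB-induced protein that modulates cell death and ERK signalling. It was at 48.1, 47.2 and 48.2 CPM with CCL26, 99.3, 61.5 and 57.2 CPM with CX3CL1 and 73.4, 67.7 and 66.2 CPM with BSA. The CCL26 libraries were the 3 lowest, and CX3CL1 replicate 1 was the highest of all. With CCL26 against BSA the log2 fold change was -0.53 in both fits (SE 0.2, edgeR adjusted p = 0.66 with all libraries; SE 0.0702, edgeR adjusted p = 4.2e-06 without CX3CL1 replicate 1), 0.693 of the BSA level. CCL26 against CX3CL1 gave -0.60 (edgeR adjusted p = 0.423) with all libraries and -0.31 (SE 0.0783, edgeR adjusted p = 0.0111) without CX3CL1 replicate 1. The first of these calls held in 8 of 8 fits with a second library left out and the other in 7 of 8, with adjusted p up to 0.186. With CX3CL1 against BSA the change was 0.07 with all libraries and -0.22 (edgeR adjusted p = 0.424) without CX3CL1 replicate 1, neither past the test.

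The Ier3 promoter is shown because it holds a match to the NF-kB site (capitals), which begins at -92 from the start. It covers chr17:35821463-35821762, plus strand. Such a match was in 8.46% of all windows. Other matches were in the Nr4a1 window shown above and in an Egr2 window not printed, where 2 overlapping ones begin at -117 and -116.
Ier3: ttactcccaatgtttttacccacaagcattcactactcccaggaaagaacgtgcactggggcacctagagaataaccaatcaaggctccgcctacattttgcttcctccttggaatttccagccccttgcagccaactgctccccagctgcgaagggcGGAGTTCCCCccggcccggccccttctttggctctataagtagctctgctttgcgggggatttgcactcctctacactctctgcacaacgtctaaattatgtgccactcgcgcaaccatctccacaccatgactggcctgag

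Ier2 (chromosome 8, 84661331 to 84662852, minus strand) encodes a nuclear protein tied to cell motility. It was at 11.5, 13.6 and 13.6 CPM with CCL26, 39.7, 17 and 16.1 CPM with CX3CL1 and 19.8, 21.2 and 19.1 CPM with BSA. The CCL26 libraries were again the 3 lowest, and CX3CL1 replicate 1 had more than any other library. CCL26 against BSA gave a log2 fold change of -0.63 in both fits (SE 0.322, edgeR adjusted p = 0.902 with all libraries; SE 0.12, edgeR adjusted p = 0.000417 without CX3CL1 replicate 1), 0.646 of the BSA level, and the call held in 8 of 8 fits with a second library left out. CX3CL1 against BSA was 0.27 with all libraries and -0.28 (SE 0.133, edgeR adjusted p = 0.664) without CX3CL1 replicate 1. Between CCL26 and CX3CL1 the change was -0.90 (95% interval -1.63 to -0.17, edgeR adjusted p = 0.423) with all libraries and -0.35 (-0.63 to -0.08, edgeR adjusted p = 0.103) without that library, and neither passed.

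Ier5 (chromosome 1, 155096361 to 155099636, minus strand) encodes a protein that works with protein phosphatase PP2A on the heat shock factor Hsf1. It was at 207, 218 and 244 CPM with CCL26, 301, 238 and 230 CPM with CX3CL1 and 277, 244 and 259 CPM with BSA. The highest CCL26 library and the lowest BSA library nearly met. Relative to BSA, CCL26 gave a log2 fold change of -0.22 in both fits (SE 0.136, edgeR adjusted p = 1 with all libraries; SE 0.055, edgeR adjusted p = 0.00502 without CX3CL1 replicate 1), 0.858 of the BSA level. This small difference passed in 7 of 8 fits with a second library left out, with adjusted p up to 0.0629. CX3CL1 against BSA was -0.02 (95% interval -0.33 to 0.29, edgeR adjusted p = 0.949) with all libraries and -0.15 (-0.28 to -0.03, edgeR adjusted p = 0.558) without CX3CL1 replicate 1, and neither passed. CCL26 against CX3CL1 gave -0.20 (edgeR adjusted p = 0.488) with all libraries and -0.07 (edgeR adjusted p = 0.587) without that library.

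**Figure D2:**
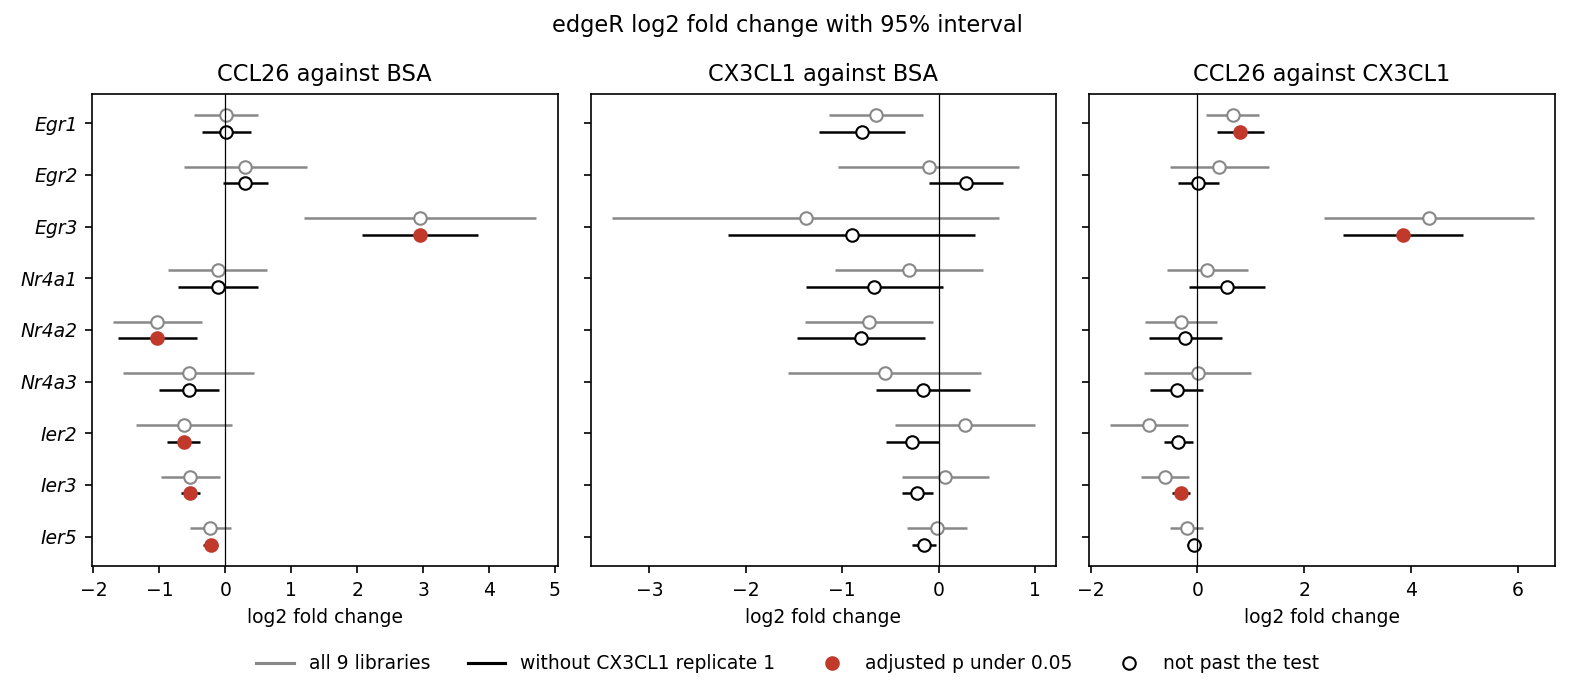
edgeR log2 fold change of each early gene with its 95% interval in the comparisons CCL26 against BSA, CX3CL1 against BSA and CCL26 against CX3CL1, with all 9 libraries (grey) and without CX3CL1 replicate 1 (black; filled red where the adjusted p is under 0.05). The points for CCL26 against BSA barely move between the fits while the intervals narrow, and for CX3CL1 against BSA Egr2, Ier2 and Ier3 change sign.

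The counts of members were read beside those of all genes. For CCL26 against BSA with all libraries, 0 of 9 members passed edgeR's test, where 0.387% of 12915 genes were higher and 0.0465% lower. In that fit 3 members and 792 genes (6.13%) had an unadjusted p under 0.05. DESeq2 called 2 members (Egr3 higher, Nr4a2 lower) and 248 genes. Without CX3CL1 replicate 1, 1 of 9 was higher and 4 of 9 were lower, where 9.74% of 13245 genes were higher and 9.26% lower. By overlap alone, 1 member lay wholly above BSA and 5 lay wholly below it (Nr4a2, Nr4a3, Ier2, Ier3, Ier5), where 16.6% and 16.5% of genes did. The median log2 fold change of the 9 was -0.22, against 0.01 over all genes, without CX3CL1 replicate 1. Beside the lower genes, 6 of 10 macrophage markers were also lower with CCL26, among them Lyz2, the lysozyme of macrophages (log2 fold change -0.35, edgeR adjusted p = 1.78e-14). The part of this in the early genes was not tested.

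For CX3CL1 against BSA with all libraries, 0 members passed edgeR's test and 0% of genes passed in either direction; 2 members and 405 genes (3.14%) had an unadjusted p under 0.05, and DESeq2 called 0 members and 0 genes. Without CX3CL1 replicate 1, 0 members passed, where 0.0227% of genes were higher and 0.31% lower. In that fit 5 members and 991 genes (7.48%) had an unadjusted p under 0.05, and DESeq2 called 0 members and 95 genes. The 2 libraries left lay wholly below BSA for 7 of 9 members (Egr1, Nr4a1, Nr4a2, Nr4a3, Ier2, Ier3 and Ier5) and wholly above for Egr2, where 13.2% of genes lay below and 12.6% above. The median log2 fold change of the 9 was -0.28, against -0.00149 over all genes, and 1 of 10 macrophage markers was lower (Lyz2, -0.10, against 0.19 with all libraries). With CX3CL1 replicate 1 kept, 3 of 9 lay wholly below (Egr1, Nr4a2 and Nr4a3) and the others overlapped. Of all 12915 genes tested with that library kept, 11.7% lay either wholly above or wholly below BSA.

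For CCL26 against CX3CL1 with all libraries, 0 members passed edgeR's test, where 0.395% of genes were higher and 0.0155% lower. In that fit 4 members and 1484 genes (11.5%) had an unadjusted p under 0.05. DESeq2 called 1 member (Egr3 higher) and 253 genes. Without CX3CL1 replicate 1, 2 of 9 were higher and 1 lower, where 5.47% of genes were higher and 4.64% lower. The CCL26 and CX3CL1 comparisons with BSA share the BSA libraries.

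Levels can be set between genes only per length, here CPM per kilobase of annotated exon (GENCODE M21). In BSA the order was Ier5 at 79.4 ± 5.12, Ier3 at 61.1 ± 3.32, Ier2 at 13.2 ± 0.716, Egr2 at 2.17 ± 0.335, Egr1 at 1.64 ± 0.152, Nr4a2 at 1.01 ± 0.209, Nr4a3 at 0.953 ± 0.0677, Nr4a1 at 0.805 ± 0.115 and Egr3 at 0.156 ± 0.118 (SD, n = 3). Neighbours in this order did not overlap, except Egr2 (1.78 to 2.37) with Egr1 (1.49 to 1.79) and Nr4a2 (0.829 to 1.24) with Nr4a3 (0.908 to 1.03). Nr4a2 also overlapped Nr4a1 (0.673 to 0.872). With CCL26, Egr3 stood at 1.23 ± 0.339 per kilobase (SD, n = 3) and ranked 6 of 9, above all 3 NR4A genes without overlap, whereas it ranked 9 of 9 with CX3CL1 and with BSA. The IER genes kept the first 3 places in every group.

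**Figure D3:**
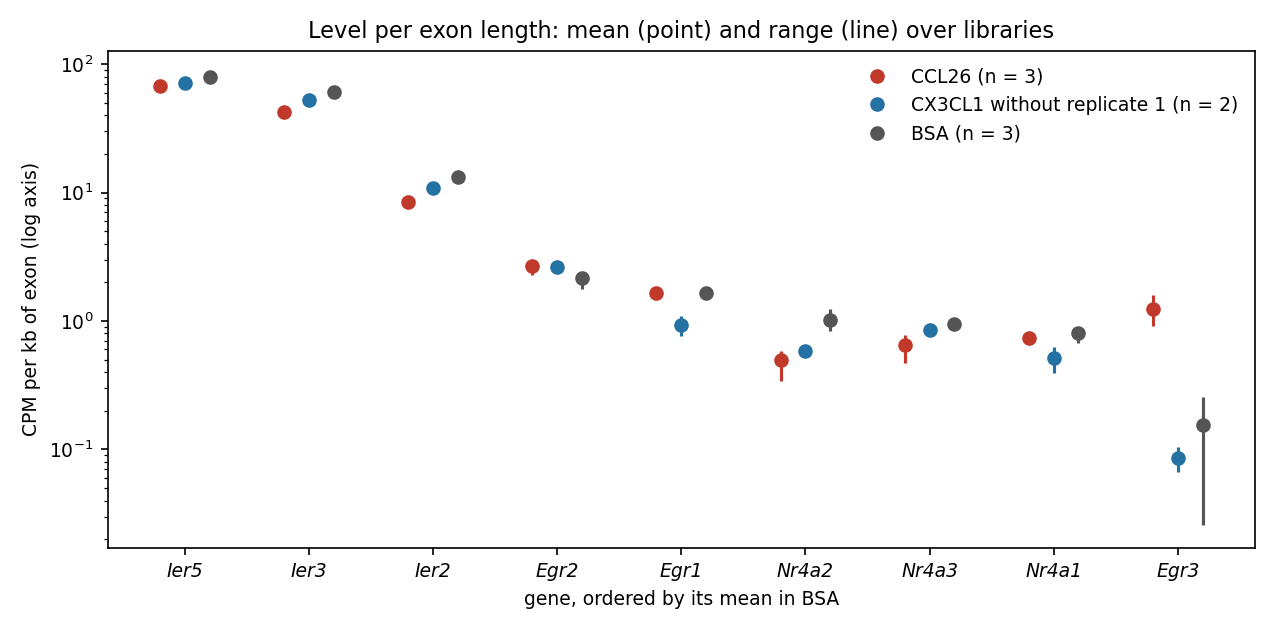
Level per exon length (CPM per kilobase, log axis) of each early gene in CCL26, CX3CL1 without replicate 1 and BSA libraries, as the mean (point) and range (line), ordered by the BSA mean. Ier5 lies at 68 in CCL26 and 79.4 in BSA at the left, and Egr3 at 1.23 in CCL26 and 0.156 in BSA at the right.

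Over the 8 libraries other than CX3CL1 replicate 1, which share depth and treatment groups, Ier2 and Ier3 were the member pair most alike (Pearson r of log2(CPM + 1) of 0.943), followed by Nr4a3 and Ier2 (0.875). Egr3 ran against Ier3 (-0.817) and Ier2 (-0.747). Among 10696 other genes of at least 1 CPM, the nearest in pattern to Egr3 were Olfr56 (0.988), Arid2 (0.982) and Zmynd15 (0.98). Olfr56 averaged 6.13 CPM with CCL26, 2.6 CPM with CX3CL1 and 2.73 CPM with BSA. For Egr1 they were Cox6a2 (0.958), Cd74 (0.957) and Prdm16 (0.939), and Cd74, the invariant chain of MHC class II, averaged 10.2, 7.4 and 10 CPM in CCL26, CX3CL1 and BSA. Ier3 was nearest to Ly6e, Lhfpl2 and Rnh1 (0.987 each), and Ier2 to Gabarap (0.987), Kansl2 (0.986) and Mef2d (0.983). Nr4a2 was nearest to Ccl6 (0.977), Pdgfa (0.97) and Raly (0.962). For Nr4a3 they were Nedd8 (0.962), Ube2r2 (0.961) and Cdv3 (0.948), and for Nr4a1 Pcnx4 (0.927), Spred2 (0.912) and Eme2 (0.896). Egr2 was nearest to Caap1 (0.988), Meaf6 (0.958) and Pif1 (0.945), and Ier5 to Tle5 (0.976), Emc7 (0.969) and Ube2s (0.968).

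Genes that act on or beside these families were followed in 8 lists of 93 genes, of which 89 were tested. With all libraries, 4 of 89 rose with CCL26 against BSA and 0 fell, where 0.387% of all genes were higher and 0.0465% lower. The 4 were the small Maf factor Maff (log2 fold change 1.24, SE 0.128, edgeR adjusted p = 0.00577), Myc, the NF-kB inhibitor Nfkbia and the activation antigen Cd69. Without CX3CL1 replicate 1, 13 rose and 19 fell, where 9.74% of all genes were higher and 9.26% lower; the values that follow are from that fit, and their fold changes with all libraries differed by at most 0.01 at 2 decimals. Among EGR regulators and relatives, which include the corepressors Nab1 and Nab2, 1 of 4 rose. It was Zfp281, another zinc-finger factor for GC-rich DNA (0.33, edgeR adjusted p = 0.00893). Nab2, itself an EGR target that feeds back on EGR factors, was at 0.38 (edgeR adjusted p = 0.0821) and did not pass. None of 6 genes for SRF and its partners passed. Of 8 CREB genes 2 fell, Crem, which encodes CREB-related activators and repressors (edgeR adjusted p = 1.39e-07), and the acetyltransferase Ep300 (-0.13).

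In the ERK list 5 of 16 fell with CCL26 against BSA without CX3CL1 replicate 1, among them Dusp6, a phosphatase that removes ERK activation (-0.84, edgeR adjusted p = 0.000418), Dusp1 (-0.32) and the feedback inhibitor Spry2 (-0.63). Of the same 16, 2 rose, among them Spred1 (0.68). Of 11 NR4A partners and related orphan receptors, Rxrb, a retinoid receptor partner, rose (0.26) and Nr1d1 fell (-0.39). Of 2 IER relatives none passed, Ier5l being at -1.57 with an SE of 0.803. Among 17 other immediate-early transcription factors 2 rose and 5 fell, and among 25 other early response genes 7 rose and 6 fell. Those that fell include Fosl2 (-0.67), Jun (-0.25) and Zfp36l2 (-0.66), a factor for messenger RNA decay; those that rose include Myc (0.89), Tnfaip3 (0.59), Nfkbia (0.84) and Cd69 (1.65). The lists thus held genes past the test in both directions, as the 9 members did.

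With CX3CL1 against BSA, 0 of the 89 passed edgeR's test with all libraries. Without CX3CL1 replicate 1, 0 rose and 7 fell, where 0.0227% of all genes were higher and 0.31% lower: Atf3, a stress-induced factor (-0.29, SE 0.0366, edgeR adjusted p = 0.000565), Junb (-0.33), Klf6 (-0.18), Crem (-0.55), Csrnp1 (-0.62), Zfp36l2 (-0.21) and Plk2 (-0.21). With all libraries their log2 fold changes were -0.23 for Atf3, -0.15 for Junb, -0.36 for Klf6, -0.17 for Crem, -0.55 for Csrnp1, -0.51 for Zfp36l2 and -0.35 for Plk2. Between CCL26 and CX3CL1 with all libraries, 4 of 89 were higher (Maff, Myc, Nfkbia and Cd69) and 0 lower. Of all genes, 0.395% were higher and 0.0155% lower in that fit. Leaving out CX3CL1 replicate 1 gave 18 higher and 8 lower, where 5.47% and 4.64% of all genes were. Crem fell with CCL26 (16.5 ± 1.72 CPM, SD, n = 3) and, without replicate 1, with CX3CL1 (mean 22.6 CPM) against BSA (33.2 ± 1.93 CPM, SD, n = 3).

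**Figure D4:**
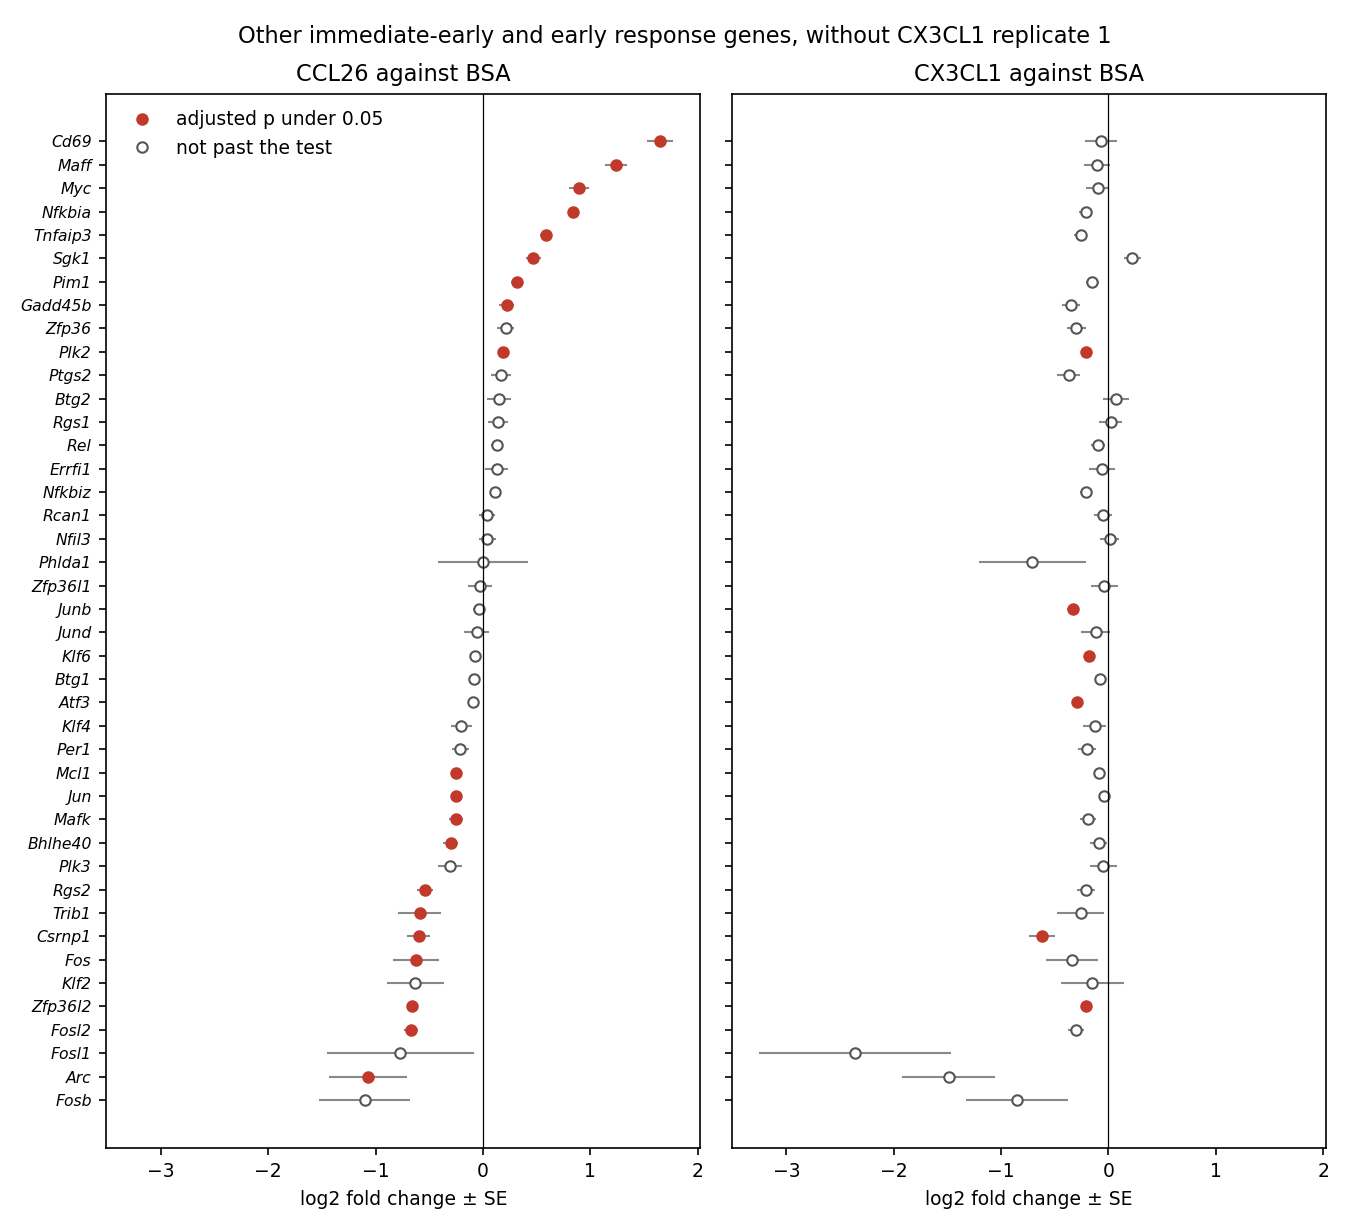
edgeR log2 fold change with its SE for the other immediate-early transcription factors and early response genes, CCL26 against BSA and CX3CL1 against BSA, both without CX3CL1 replicate 1, red where the adjusted p is under 0.05. CCL26 shows genes past the test on both sides, from Arc at -1.07 to Cd69 at 1.65, while the genes past the test with CX3CL1, such as Csrnp1 at -0.62, lie below 0.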

How the data were processed

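The authors deposited 1 table of raw read counts per gene, whole numbers that are not normalized. STAR, featureCounts and MultiQC (no versions) and the builds GRCm38 and mm10 are named in the submitters' processing notes. The strand setting of the counting was not given in the sources used here. Libraries came from total RNA by the NEBNext Ultra II kit and were read as 150 bp pairs, per the labels' protocols. Columns were matched to libraries by the code in the labels, and 0 were left unmatched. No annotated gene overlapped a member in GENCODE M21.

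All 9 libraries entered 1 fit of all genes in edgeR 4.0.16 (R 4.3.3; filterByExpr by group, TMM scaling, quasi-likelihood F test, Benjamini-Hochberg over 12915 genes, threshold 0.05). The same fit without CX3CL1 replicate 1 tested 13245 genes. Log2 fold changes are signed so that the group named first is higher when they are above 0, and intervals are 95%. In a chi-square comparison of counts within groups (genes of 20 counts or more), CX3CL1 replicate 1 gave 284 and 336 per degree of freedom and the other pairs 3.91 to 8.65, so no library was counted as a copy of another.

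The members, gene lists and alternatives were chosen with earlier results of these data known. Genes named are the 9 members, list genes past the test with all libraries, up to 4 per list with the smallest p without CX3CL1 replicate 1, and the 3 genes nearest to each member in pattern; Arc, named in a caption, was chosen after its values were seen. Alternatives were DESeq2 1.42.0, limma 3.58.1 (voom with quality weights), RLE scaling, no filter, a replicate block, the 6 libraries of a comparison, and leaving out 1 or 2 libraries. Scripts were tested on simulated counts. Promoters are RefSeq's, found for 6 of 9 members; Egr1, Egr3 and Ier2 were not matched. Motifs were searched on both strands. Figures were drawn with matplotlib 3.10.9.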

Additional observations from a re-analysis of the deposited data

How the results depend on the processing

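Which early genes passed the test depended on CX3CL1 replicate 1. That library is in neither group of CCL26 against BSA, but the fit of all 9 libraries estimates the spread over all groups together. Why it stood apart was not tested. For CCL26 against BSA, 0 members passed with RLE scaling, no filter or a replicate block, 1 higher and 1 lower with DESeq2, 1 higher and 5 lower with limma-voom and quality weights, and 1 higher and 4 lower with the 6 libraries compared or, without CX3CL1 replicate 1, with edgeR, DESeq2, RLE scaling and the replicate block. For CCL26 against CX3CL1, 1 was higher with DESeq2, 0 passed with the 6 libraries, and 2 were higher and 1 lower with limma-voom and, without CX3CL1 replicate 1, with DESeq2, RLE scaling and the replicate block. Leaving out 1 library, or CX3CL1 replicate 1 with 1 more, gave 0 to 1 higher and 0 to 4 lower against BSA, and 0 to 2 higher and 0 to 1 lower against CX3CL1; calls came only from fits without CX3CL1 replicate 1. For CX3CL1 against BSA every setting gave 0 members. Over all genes, DESeq2 called 248 for CCL26 against BSA with all libraries and 2584 without CX3CL1 replicate 1. For CCL26 against CX3CL1 it called 253 and 1483. Member counts of limma-voom, RLE scaling, no filter, the block, the 6 libraries and the further leave-out fits are given without the share over all genes. They cannot be read against it. Of the 89 list genes, leaving out CX3CL1 replicate 1 gave 13 higher and 19 lower with CCL26 against BSA, 7 lower with CX3CL1, and 18 higher and 8 lower between them.

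Signs that turned were all of values not past the test. CX3CL1 against BSA, without CX3CL1 replicate 1, gave for Egr2 0.29 with DESeq2, 0.28 with RLE scaling and 0.36 with the replicate block; for Ier2 -0.28, -0.28 and -0.32; for Ier3 -0.22, -0.22 and -0.20. With limma-voom weights these were 0.28, -0.27 and -0.21. CCL26 against CX3CL1 gave for Nr4a3 -0.39 with DESeq2 and RLE scaling, -0.29 with the block and -0.45 with limma-voom, and for Egr2 -0.05 with the block. Egr1 with CCL26 against BSA was at 0.00 under RLE scaling, just below 0 before rounding. Leaving out 1 library, or CX3CL1 replicate 1 with 1 more, gave ranges of -0.05 to 0.08 for Egr1 with CCL26 against BSA, of -0.36 to 0.36, -0.31 to 0.50, -0.27 to 0.22 and -0.20 to 0.05 for Egr2, Ier2, Ier3 and Ier5 with CX3CL1 against BSA, and of -0.54 to 0.28, -0.08 to 0.90 and -0.06 to 0.67 for Nr4a3, Nr4a1 and Egr2 with CCL26 against CX3CL1. Nr4a1 in CCL26 was 2.59 CPM under RLE scaling.

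Replicate numbers are shared by the groups. Deviations from the group means correlated at r from -0.129 to 0.0984 between same-numbered libraries of different groups. For differently numbered libraries r ran from -0.148 to 0.149. The means included CX3CL1 replicate 1, which lay far from its replicates, so this check cannot tell whether the numbers pair libraries. Counts of Egr3 in CX3CL1 and BSA libraries, from 0 to 22, and of the NR4A genes limit what small changes these depths can show.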
